A study of Mus musculus with 6 samples.

Results

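Reg lectins and other antimicrobial proteins of the gut lining were followed as 10 genes chosen by name: Reg3b, Reg3g, Reg4, Ang4, Pla2g2a, Itln1, Lypd8, Wfdc2, Mptx1 and Defb37. The deposited table of 30777 genes had a row for 9 of them, and all 9 were among the 20101 genes expressed highly enough to be tested. Defb37 was not analysed here. RNA was sequenced from colon tissue of BALB/c mice, an inbred laboratory strain, in 3 libraries from mice given 5-fluorouracil and berberine (5-Fu+BBR) and 3 libraries from mice given 5-fluorouracil alone (5-Fu). 5-Fluorouracil, a pyrimidine analogue used in chemotherapy, was thus given in both groups, and berberine, a plant alkaloid, in 1 of them. Dose, age and time were not given in the sources used here. The only comparison asks which colon genes differ with berberine. Nothing in the labels ties the libraries to separate animals, and a p-value here covers only the variation among these 6 samples, which may be technical.

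Epithelial cells of the intestine keep bacteria away from the tissue with secreted and surface proteins. Reg3b and Reg3g encode C-type lectins that bind bacterial cell walls, and their transcription in epithelium is known to be driven by the cytokine IL-22 acting through the transcription factor STAT3 and, for Reg3g, by signalling through Myd88. Reg4 encodes a related lectin made by deep crypt secretory cells of the colon. Ang4 encodes an antimicrobial ribonuclease, Itln1 a lectin for microbial sugars and Mptx1 a pentraxin, all 3 products of secretory epithelial cells. Pla2g2a encodes a phospholipase that attacks bacterial membranes, Lypd8 a surface protein of colonocytes that binds flagella, and Wfdc2 a secreted protease inhibitor with antibacterial activity.

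Reg3b (ENSMUSG00000071356) lies on chromosome 6 of the mouse build GRCm38, from 78370657 to 78373466 on the plus strand. Reg3g (ENSMUSG00000030017) lies on the same chromosome from 78466269 to 78468872 on the minus strand, 92.8 kb away, with Reg3d, Reg3a, Reg2 and Reg1 between them. Ang4 (ENSMUSG00000060615) is on chromosome 14 from 51763878 to 51773590 on the minus strand. Itln1 (ENSMUSG00000038209) is on chromosome 1 from 171518122 to 171535294 on the minus strand. Mptx1 (ENSMUSG00000026531) is on the same chromosome from 174330518 to 174332873 on the plus strand, 2.80 Mb from Itln1. Reg4 (ENSMUSG00000027876) is on chromosome 3 from 98222156 to 98236748, Pla2g2a (ENSMUSG00000058908) on chromosome 4 from 138831857 to 138835186, Lypd8 (ENSMUSG00000013643) on chromosome 11 from 58379043 to 58390728, and Wfdc2 (ENSMUSG00000017723) on chromosome 2 from 164562413 to 164568510, all on the plus strand. The annotation lists Pla2g2a as a polymorphic pseudogene, since the reference strain C57BL/6J carries a frameshift that BALB/c lacks.

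As described in the next paragraphs, Reg3b and Reg3g moved together, while Ang4, Itln1 and Mptx1 had their highest value in the same library. The promoters of these 5 members, which varied most between libraries, are shown. They are RefSeq sequences of GRCm38.p6, 250 bases before to 50 bases after the start site on the strand of the gene, and 8 of the members matched an entry. Capitals mark TTCNNNGAA, the core letters of a STAT site, and TATAAA, the TATA box letters, searched on both strands, so that TTTATA is a match on the opposite strand. The windows are chr6:78370635-78370934 (plus) for Reg3b, chr6:78468825-78469124 (minus) for Reg3g, chr14:51773541-51773840 (minus) for Ang4, chr1:171535245-171535544 (minus) for Itln1 and chr1:174330268-174330567 (plus) for Mptx1.
Reg3b: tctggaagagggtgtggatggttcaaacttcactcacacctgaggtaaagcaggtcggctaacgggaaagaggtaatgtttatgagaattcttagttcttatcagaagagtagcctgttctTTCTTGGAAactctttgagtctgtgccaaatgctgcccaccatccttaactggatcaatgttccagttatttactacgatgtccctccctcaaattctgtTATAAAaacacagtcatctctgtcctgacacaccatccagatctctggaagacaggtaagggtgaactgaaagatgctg
Reg3g: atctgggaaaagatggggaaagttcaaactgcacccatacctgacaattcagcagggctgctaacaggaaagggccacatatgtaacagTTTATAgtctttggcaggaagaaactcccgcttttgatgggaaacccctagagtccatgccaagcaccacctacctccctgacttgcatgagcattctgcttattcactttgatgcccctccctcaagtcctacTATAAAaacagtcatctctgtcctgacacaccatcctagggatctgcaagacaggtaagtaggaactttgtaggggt
Ang4: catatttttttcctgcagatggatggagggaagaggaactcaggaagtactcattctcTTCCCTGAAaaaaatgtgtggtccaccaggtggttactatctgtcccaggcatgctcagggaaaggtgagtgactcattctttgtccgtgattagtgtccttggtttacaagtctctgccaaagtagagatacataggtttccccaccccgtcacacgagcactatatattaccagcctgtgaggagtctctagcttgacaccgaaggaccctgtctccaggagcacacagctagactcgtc
Itln1: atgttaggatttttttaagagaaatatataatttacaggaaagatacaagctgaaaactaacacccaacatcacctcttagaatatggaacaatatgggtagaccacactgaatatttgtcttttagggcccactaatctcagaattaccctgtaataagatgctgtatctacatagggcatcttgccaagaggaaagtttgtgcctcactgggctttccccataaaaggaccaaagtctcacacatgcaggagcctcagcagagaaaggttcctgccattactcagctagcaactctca
Mptx1: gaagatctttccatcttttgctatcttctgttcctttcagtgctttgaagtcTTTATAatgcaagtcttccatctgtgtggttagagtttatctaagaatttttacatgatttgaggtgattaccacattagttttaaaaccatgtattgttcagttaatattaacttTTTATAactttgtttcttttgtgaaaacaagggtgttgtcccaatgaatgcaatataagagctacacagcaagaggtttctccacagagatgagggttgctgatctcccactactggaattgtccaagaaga

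The Reg3b and Reg3g windows were 68.1% identical in a global alignment, with 29 bases as their longest shared run, which follows the TATA box. Ang4 and Itln1 were 46.3% identical, Ang4 and Mptx1 42.4%, and Itln1 and Mptx1 39.4%, with shared runs of 8 bases or fewer. TATAAA began 29 bases before the start site in Reg3b and 27 bases before it in Reg3g, and a second match in Reg3g began 161 bases before it. Mptx1 had matches 198 and 82 bases before its start. TATAAA stood in 13.6% of 32851 promoters of the same length. TTCNNNGAA began 129 bases before the start in Reg3b and 192 bases before it in Ang4, against 8.30% of all promoters. These matches describe letters in a window and do not show that a factor bound there.

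The deposited estimated counts summed to 61820101, 54067678 and 53824752 in 5-Fu+BBR libraries 1 to 3 and to 55542521, 63831168 and 53970545 in 5-Fu libraries 1 to 3. CPM below divide these counts by the library size after TMM scaling, and FPKM are the authors' values scaled to transcript length and depth. Log2 fold changes are 5-Fu+BBR minus 5-Fu from edgeR, with p from its two-sided quasi-likelihood test, adjusted over all genes tested. The SE after ± was derived from that test, as the size of the fold change divided by the square root of the F statistic. In that test 15 of 20101 genes, 0.0746%, had an adjusted p under 0.05, 0.0597% higher and 0.0149% lower. Epithelial markers such as Epcam and Cdh1 gave overlapping sums in the groups, 15485, 13402 and 14304 CPM over 12 genes in 5-Fu+BBR and 15084, 13383 and 16808 CPM in 5-Fu. Goblet cell markers summed to 17388, 15527 and 15073 CPM in 5-Fu+BBR and 10683, 8185 and 14071 CPM in 5-Fu.
Smooth muscle markers summed to 5399, 6240 and 5902 CPM in 5-Fu+BBR and 3971, 3012 and 3527 CPM in 5-Fu, and adipocyte markers to 230, 368 and 285 CPM in 5-Fu+BBR and 91.9, 107 and 114 CPM in 5-Fu. At an unadjusted p under 0.05, 10 of 12 smooth muscle, 11 of 12 adipocyte, 5 of 12 macrophage and 8 of 13 lymphoid markers were higher, and 0 of each list were called by edgeR.
Some libraries also held transcripts known from other organs. The 12 kidney markers summed to 40.6, 210 and 212 CPM in 5-Fu+BBR, against 53.5, 48.1 and 62.7 CPM in 5-Fu, and the kidney gene Kap was at 10.01, 109 and 105 CPM in 5-Fu+BBR and 7.89, 7.92 and 10.5 CPM in 5-Fu. Of the 12 pancreatic acinar genes, 9 were too low to be tested, among them the digestive enzymes Ctrb1, Pnlip and Prss2. All 9 had counts in 5-Fu+BBR library 2, 411 in sum, against 4 and 0 in 5-Fu+BBR libraries 1 and 3 and 0, 0 and 16 in the 5-Fu libraries. The part of these transcripts in the members' values was not tested.

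None of the 9 members, against 0.0746% of all genes, differed between the groups at an adjusted p under 0.05. The lowest adjusted p was 0.241, for Reg4. At an unadjusted p under 0.05, 1 member was higher in 5-Fu+BBR and 0 were lower by edgeR, where 9.48% of all genes tested were higher and 6.08% lower. DESeq2, limma-voom and limma on log2 FPKM also called 0 members. For 1 member, Reg4, all 5-Fu+BBR libraries lay above all 5-Fu libraries, as they did for 12.3% of all genes. No member lay below without overlap, as 9.68% of all genes did, and the groups overlapped for the other 8 members. Fold changes were positive for 6 members and negative for 3, with a median of 0.05, against 0.01 and 50.7% positive over all genes tested.

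**Figure D1:**
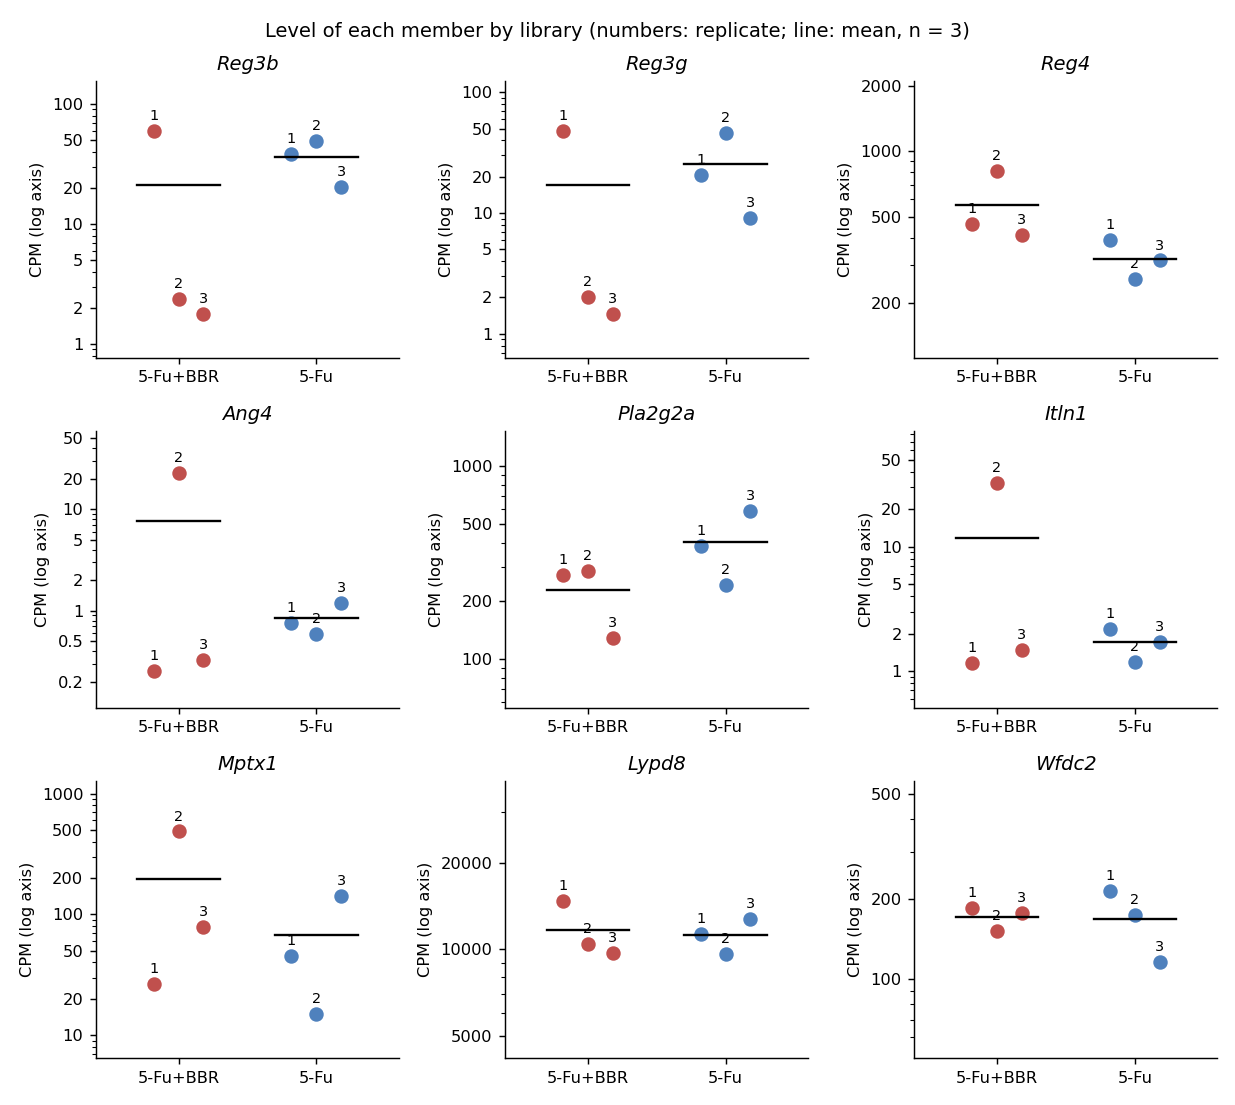
CPM of the 9 members (log axis) in the 3 5-Fu+BBR libraries, left, and the 3 5-Fu libraries, right, with each library marked by its number and the group mean as a line. Reg3b and Reg3g are low in 5-Fu+BBR libraries 2 and 3, Ang4, Itln1 and Mptx1 are high in 5-Fu+BBR library 2, and only for Reg4 do the groups not overlap.

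Of the 9 members, 5 varied widely between libraries. The SD of log2 CPM over the 6 libraries was 2.29 for Ang4, 2.25 for Reg3b, 2.18 for Reg3g, 1.83 for Itln1 and 1.80 for Mptx1, against a median of 0.32 over all genes tested. Lypd8 and Wfdc2, at 0.24 and 0.30, lay below that median, while Pla2g2a and Reg4 were at 0.73 and 0.57.

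Reg3b was at 59.8, 2.39 and 1.77 CPM in 5-Fu+BBR libraries 1 to 3, against 38.1, 49.5 and 20.3 CPM in the 5-Fu libraries. Library 1 of 5-Fu+BBR was thus the highest of all 6, while libraries 2 and 3 lay below every other library, and the groups overlapped. The means were 21.3 ± 33.3 CPM in 5-Fu+BBR and 36.0 ± 14.7 CPM in 5-Fu (SD, n = 3 each), a log2 fold change of -0.76 ± 1.35 (edgeR, adjusted p = 0.835). On the same 6 libraries it was -2.39 by limma-voom (unadjusted p = 0.0501, adjusted p = 0.303), -1.99 on log2(FPKM + 1) and -2.37 on log2(FPKM + 0.1). Within 5-Fu+BBR, library 1 was 25.03 times the higher of libraries 2 and 3, and the lowest 5-Fu library was 8.52 times that level. Without 5-Fu+BBR library 1 the log2 fold change was -4.11 ± 0.45 (edgeR, adjusted p = 0.0336, n = 2 against 3), and without libraries 2 and 3 it was 0.72. The sign and the call thus depended on which 5-Fu+BBR libraries were counted. In bulk tissue, fewer cells of a type and less RNA per cell cannot be told apart.

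Reg3g, the partner lectin that acts on Gram-positive bacteria, had the same pattern. Its level was 47.6, 2.01 and 1.46 CPM in 5-Fu+BBR, against 20.7, 46.3 and 9.07 CPM in 5-Fu. By CPM 5-Fu+BBR library 1 lay just above 5-Fu library 2, but by FPKM the order was reversed, at 18.3 in 5-Fu+BBR library 1 and 19.6 in 5-Fu library 2. On both scales 5-Fu+BBR libraries 2 and 3 were the lowest. The log2 fold change was -0.57 ± 1.41 (edgeR, adjusted p = 0.885), -2.01 by limma-voom, -1.30 on log2(FPKM + 1) and -1.88 on log2(FPKM + 0.1). Library 1 stood 23.7 times above the higher of libraries 2 and 3 in 5-Fu+BBR, and the lowest 5-Fu library 4.52 times above it. Without 5-Fu+BBR library 1 the fold change was -3.87 ± 0.79 (edgeR, adjusted p = 0.136), and it changed sign without 5-Fu library 2 (0.21) or without 5-Fu+BBR libraries 2 and 3 (0.90).

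Reg3b and Reg3g moved together across libraries. With each gene centred on its mean log2 CPM, the root mean square difference between them was 0.39, next to 0.38 for Lypd8 and Wfdc2, the smallest of the member pairs, and 3.56 for Reg3b and Ang4, the largest. By FPKM, Reg3b was 2.32, 2.18 and 2.24 times Reg3g in 5-Fu+BBR and 3.41, 1.98 and 4.16 times Reg3g in 5-Fu, so Reg3b was the more abundant in all 6 libraries. Their transcripts were 66.5% identical, and no stretch of 150 bases, the read length, was shared in the reference. The reads came from BALB/c while the reference is C57BL/6J, which can move single values in families of similar genes.
The Reg genes between them were hardly present. Reg1, with 4, 21 and 0 counts, and Reg2, with 0, 34 and 0 counts in 5-Fu+BBR, had 0 counts in all 5-Fu libraries. Reg3a had at most 12 counts and Reg3d at most 3 in any library. The counts of Reg2, a gene known from exocrine pancreas, stood in the library that held acinar transcripts.

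The genes most like Reg3b across the 6 libraries, with a mean of at least 10 CPM, were Lrg1, Isx and Mfsd2a, at centred differences of 0.90, 0.91 and 0.95. Lrg1, which encodes a secreted leucine-rich glycoprotein, was at 14.5, 2.73 and 2.33 CPM in 5-Fu+BBR and 63.3, 39.0 and 20.2 CPM in 5-Fu. Isx, an intestinal homeobox factor, was at 6.53, 0.778 and 0.433 CPM in 5-Fu+BBR and 19.7, 21.9 and 16.8 CPM in 5-Fu. Both were lowest in 5-Fu+BBR libraries 2 and 3, but unlike Reg3b their 5-Fu+BBR library 1 lay below all 5-Fu libraries. Most like Reg3g were Plet1, Cxcl5 and Fam124a, at 0.93, 0.96 and 0.997. The neutrophil chemokine Cxcl5 was at 10.8, 0.597 and 0.595 CPM in 5-Fu+BBR and 17.8, 31.0 and 1.04 CPM in 5-Fu.
In all, 10 genes, 0.0497% of those tested, had 5-Fu+BBR libraries 2 and 3 at least 5-fold below the lowest of the other 4 libraries at a mean of at least 1 CPM. Besides Reg3b they were Lrg1, Isx, Cers3, Myot, Spink6, the neutrophil genes S100a8 and Retnlg, and the predicted genes Gm47033 and Gm47204. This pattern was set after the values of Reg3b were seen and has no test. Retnlg met it near the floor, with 18, 0 and 0 counts in 5-Fu+BBR and 246, 115 and 11 counts in 5-Fu.

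**Figure D2:**
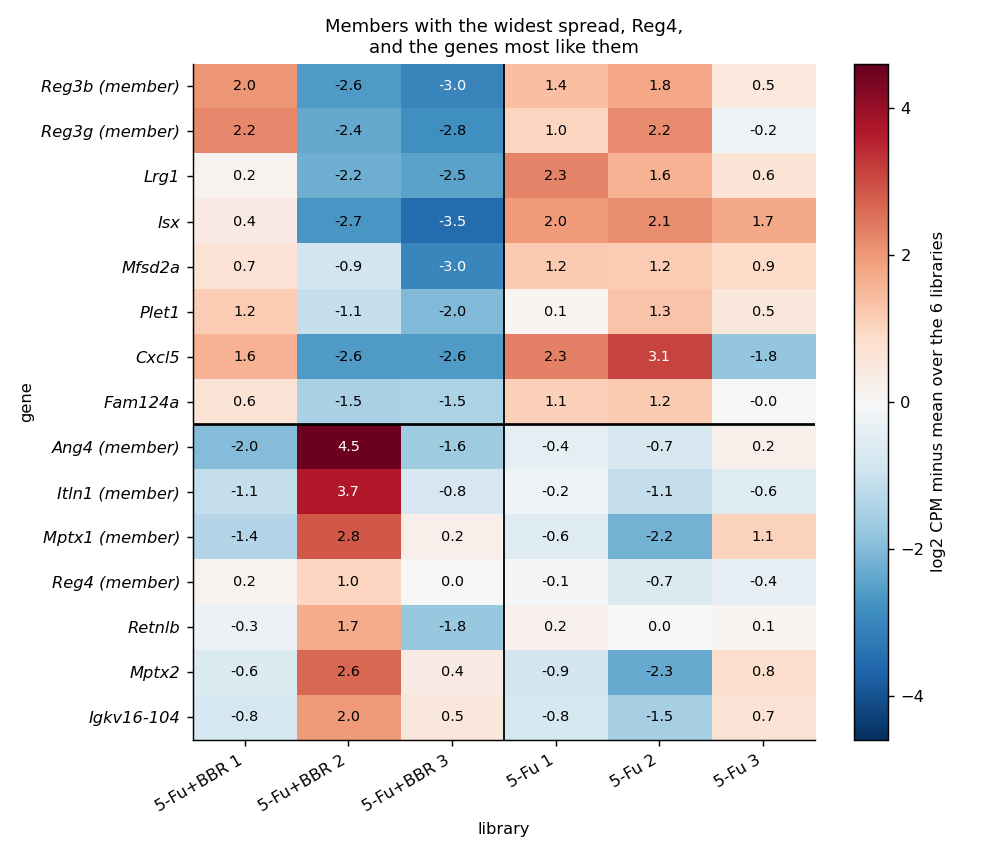
Log2 CPM minus its mean over the 6 libraries (colour and printed value) for Reg3b and Reg3g with the 6 genes most like them, upper block, and for Ang4, Itln1, Mptx1 and Reg4 with the 3 genes most like Ang4, lower block, in 5-Fu+BBR libraries, left, and 5-Fu libraries, right. The upper block is low in 5-Fu+BBR library 3 and, for all its genes, below its mean in library 2; the lower block is highest in 5-Fu+BBR library 2.

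Ang4 was at 0.254, 22.7 and 0.325 CPM in 5-Fu+BBR and 0.757, 0.595 and 1.18 CPM in 5-Fu. As deposited counts these were 15, 1253 and 18 in 5-Fu+BBR against 42, 40 and 60 in 5-Fu. Library 2 of 5-Fu+BBR was 19.2 times the highest other library, and libraries 1 and 3 were below all 5-Fu libraries. Since 1 fragment can be worth about 4 counts, the values outside library 2 rest on few fragments. Ang4 fell below the filter when counts were divided by 4 or when at least 50 counts in 3 libraries were required. With all 6 libraries the log2 fold change was 3.20 ± 1.78 (edgeR, adjusted p = 0.459), 0.62 by limma-voom and 0.92 on log2(FPKM + 1) with no filter. Without library 2 it was -1.54 (adjusted p = 0.4998). In FPKM order Ang4 was gene 1777 of the table in that library and between gene 11807 and gene 16911 in the other libraries.

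Itln1 was at 1.17, 32.7 and 1.48 CPM in 5-Fu+BBR, against 2.198, 1.19 and 1.71 CPM in 5-Fu. The same library was high, 14.9 times the highest other, while 5-Fu+BBR libraries 1 and 3 lay below or within the 5-Fu range. With all 6 libraries the log2 fold change was 2.79 ± 1.39 (edgeR, adjusted p = 0.405), 1.21 by limma-voom, 1.05 on log2(FPKM + 1) and 1.20 on log2(FPKM + 0.1). It was -0.36 by edgeR without library 2. The related genes Itln2 and Itlnb had no row, and whether reads of other intelectins were counted as Itln1 was not tested.

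Mptx1 was at 26.4, 486 and 79.0 CPM in 5-Fu+BBR and 45.1, 14.9 and 142 CPM in 5-Fu. It was again highest in 5-Fu+BBR library 2, 3.43 times the next library, which was 5-Fu library 3, and it also varied within 5-Fu. The log2 fold change was 1.55 ± 1.27 (edgeR, adjusted p = 0.615) and -0.35 without library 2. Its neighbour Mptx2, 1.05 Mb away and not a member, was at 53.1, 515 and 108 CPM in 5-Fu+BBR and 45.5, 16.7 and 144 CPM in 5-Fu. The transcripts of Mptx1 and Mptx2 are 91.9% identical, although no stretch of 150 bases of Mptx1 was found in Mptx2 in the reference. How the authors' counting divided reads between them was not tested. The FPKM ratio of Mptx1 to Mptx2 was 0.494, 0.939 and 0.723 in 5-Fu+BBR and 0.985, 0.888 and 0.979 in 5-Fu.

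Ang4 and Itln1 had a centred difference of 0.65, Itln1 and Mptx1 of 0.98 and Ang4 and Mptx1 of 1.21. Reg4 differed from Itln1 by 1.27, from Mptx1 by 1.32 and from Ang4 by 1.78. Most like Ang4 among other genes was Retnlb, which encodes a goblet cell protein with bactericidal activity, at 32.5, 128 and 11.6 CPM in 5-Fu+BBR and 45.4, 39.4 and 41.7 CPM in 5-Fu. Mptx2 and the antibody segment Igkv16-104 came next, at differences of 1.38 and 1.44 after 1.35 for Retnlb. At 10 CPM or more, 4 genes stood at least 5-fold above all other libraries in 5-Fu+BBR library 2, and they were Ang4, Itln1, the antibody gene Ighg1 and Mcpt2, a mast cell protease. Each of the other libraries had 0 to 2 such genes. At 1 CPM or more the count was 5 in 5-Fu+BBR library 2, 0.0249% of genes tested. It was 3 and 4 in 5-Fu+BBR libraries 1 and 3, and 3, 4 and 2 in the 5-Fu libraries. This pattern was not fixed beforehand, Ang4 and Itln1 are themselves members, and it has no test. Mast cell proteases form a family of similar genes, so reads may be split among them.
Several marker lists were looked at in that library. The acinar transcripts stood there as given above. Mast cell markers, a list written after values were seen, summed to 19.7, 53.5 and 19.5 CPM in 5-Fu+BBR and 14.9, 16.0 and 11.6 CPM in 5-Fu, with 4 of 9 tested higher at an unadjusted p under 0.05 and 0 called. Mcpt1 was at 4.63, 21.9 and 3.64 CPM in 5-Fu+BBR and 0.829, 1.32 and 2.17 CPM in 5-Fu. Of 12 genes of the type 2 response, another list written then, 8 were tested and 0 passed at either level, and Il13 had 0, 0 and 4 counts in 5-Fu+BBR and 0 in 5-Fu.
Paneth cells of the small intestine also make Itln1 and Mptx2. Of 11 Paneth cell markers 5 were tested, with 0 called and 1 higher and 1 lower at an unadjusted p under 0.05, Lyz1 and Mmp7. Mmp7, a protease that activates defensins, was at 8.28, 3.17 and 1.32 CPM in 5-Fu+BBR and 26.2, 18.8 and 16.8 CPM in 5-Fu, and all Lyz1 values in 5-Fu+BBR lay above those in 5-Fu. The defensins Defa17 and Defa24 had 0 counts in all 5-Fu+BBR libraries, including library 2, and 0 to 23 in 5-Fu. Of 10 markers of small intestinal enterocytes 8 were tested, with 0 called and 1 higher and 2 lower at that level. Fabp2, a fatty acid binding protein, was at 7.68, 22.2 and 17.6 CPM in 5-Fu+BBR and 5.62, 3.48 and 7.35 CPM in 5-Fu, highest in 5-Fu+BBR library 2. Rbp2, a retinol binding protein, was at 19.2, 11.03 and 19.5 CPM in 5-Fu+BBR and 34.7, 19.9 and 32.8 CPM in 5-Fu. Lct and Sis were below the filter, and the sum of the list was 34.4, 40.01 and 42.5 CPM in 5-Fu+BBR and 51.1, 29.4 and 46.5 CPM in 5-Fu. The part of mast cells, of small intestinal cells and of pancreatic RNA in the values of library 2 was not tested.

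Reg4, the lectin of deep crypt secretory cells, was at 464, 812 and 413 CPM in 5-Fu+BBR, against 389, 256 and 314 CPM in 5-Fu. All 5-Fu+BBR libraries lay above all 5-Fu libraries, by a small margin between 413 and 389 CPM. The means were 563 ± 217 CPM in 5-Fu+BBR and 319.5 ± 66.2 CPM in 5-Fu (SD, n = 3 each), a log2 fold change of 0.82 ± 0.28, with an unadjusted p of 0.0201 and an adjusted p of 0.241 by edgeR. Without 5-Fu+BBR library 2, again the highest, the fold change was 0.46 (adjusted p = 0.551). DESeq2 gave an adjusted p of 0.0527 for Reg4. Markers of deep crypt secretory cells summed to 5557, 4193 and 3484 CPM in 5-Fu+BBR and 3336, 3546 and 3963 CPM in 5-Fu. Muc2, also on the goblet cell list, took most of that, at 4094, 2679 and 2302 CPM in 5-Fu+BBR and 1887, 2267 and 2744 CPM in 5-Fu. Of those 9 genes 0 were called, and Egf and Kit were higher at an unadjusted p under 0.05. Egf was at 3.57, 8.74 and 10.01 CPM in 5-Fu+BBR and 3.13, 2.14 and 2.897 CPM in 5-Fu. Its highest values stood in 5-Fu+BBR libraries 2 and 3, where the kidney markers were also high. The part of kidney RNA in the Egf values was not tested. Among 14 goblet cell markers 0 were called, and 3 were higher and 1 lower at an unadjusted p under 0.05. Clca1, a mucus protein, was at 2100, 3279 and 2287 CPM in 5-Fu+BBR and 837, 465 and 1383 CPM in 5-Fu. Muc2, the main gel-forming mucin, had a log2 fold change of 0.40 (adjusted p = 0.488).

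Pla2g2a was at 273, 287 and 129 CPM in 5-Fu+BBR, against 386, 243 and 586 CPM in 5-Fu. The groups overlapped, since 5-Fu library 2 lay below both 5-Fu+BBR libraries 1 and 2. The log2 fold change was -0.82 ± 0.41 (edgeR, adjusted p = 0.397). It was negative in all 19 alternatives run, between -1.08 and -0.45. The related Pla2g2d was at 20.1, 25.9 and 16.3 CPM in 5-Fu+BBR and 4.23, 5.48 and 11.8 CPM in 5-Fu (log2 fold change 1.54, edgeR adjusted p = 0.160).

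Lypd8 was the most abundant member and the second most abundant gene of the whole table by FPKM in each of the 6 libraries. It was at 9336, 7061 and 6429 FPKM in 5-Fu+BBR and 7476, 6743 and 7758 FPKM in 5-Fu, and it took 0.999% to 1.41% of all counts. The groups overlapped in full, with a log2 fold change of 0.05 ± 0.22 (edgeR, adjusted p = 0.937) on 14754, 10465 and 9701 CPM in 5-Fu+BBR and 11316, 9659 and 12749 CPM in 5-Fu. Wfdc2 was at 186, 151 and 177 CPM in 5-Fu+BBR and 214, 174 and 115 CPM in 5-Fu, with 0.03 ± 0.21 (edgeR, adjusted p = 0.969). The signs of both small changes turned when single libraries were left out. Of 12 markers of colonocytes, the cells that make Lypd8, 0 were called and 1 was higher at an unadjusted p under 0.05.

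By mean FPKM, which corrects for length, the order in 5-Fu+BBR was Lypd8 at 7608, Reg4 at 467, Mptx1 at 213, Pla2g2a at 208, Wfdc2 at 126, Reg3b at 15.2, Ang4 at 9.45, Itln1 at 8.92 and Reg3g at 6.57. In 5-Fu it was Lypd8 at 7326, Pla2g2a at 360.3, Reg4 at 263, Wfdc2 at 125, Mptx1 at 67.7, Reg3b at 27.0, Reg3g at 10.4, Itln1 at 1.25 and Ang4 at 0.977. In 5-Fu+BBR the ranges of Reg3b, Ang4, Itln1 and Reg3g overlapped each other, as did those of Mptx1, Pla2g2a, Wfdc2 and Reg4 with at least 1 neighbour. In 5-Fu the neighbours Pla2g2a and Reg4, Wfdc2 and Mptx1, Mptx1 and Reg3b, Reg3b and Reg3g, and Itln1 and Ang4 overlapped, while Lypd8 stood apart from all others in both groups.

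**Figure D3:**
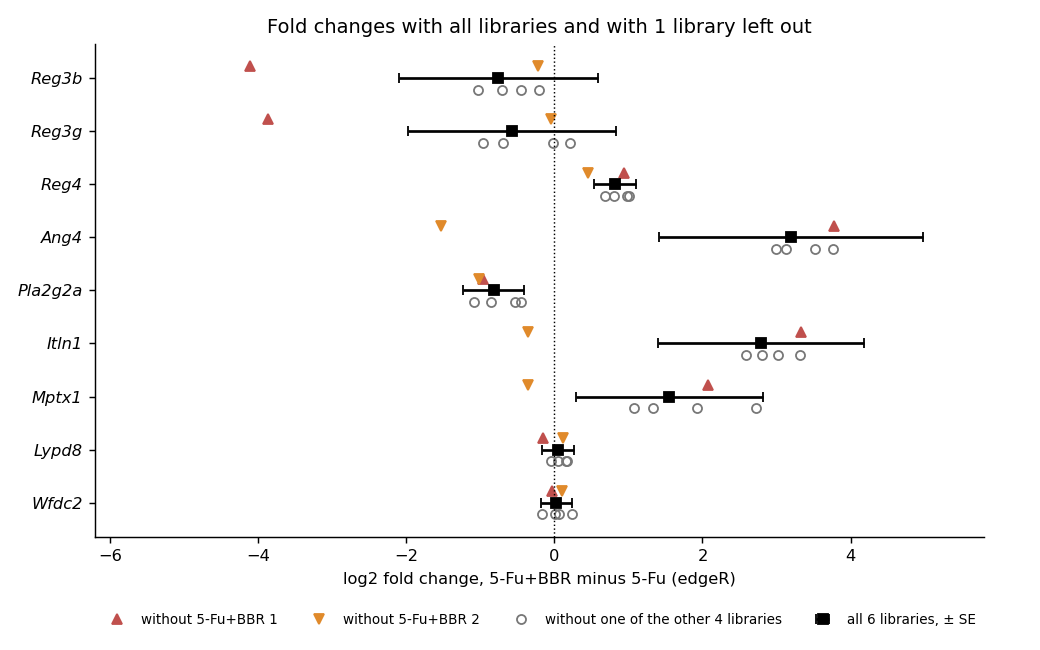
Log2 fold change, 5-Fu+BBR minus 5-Fu, of each member with its SE from edgeR, over all 6 libraries (squares, bars for SE), and without SE with 5-Fu+BBR library 1 or 2 (triangles) or 1 of the other 4 libraries (circles) left out. Reg3b and Reg3g move to -4.11 and -3.87 without library 1, and Ang4, Itln1 and Mptx1 turn negative without library 2.

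Relatives of the members were few. Of 17 listed genes of the Reg, angiogenin, intelectin, pentraxin and phospholipase families, 11 had a row and 7 were tested, with 0 called, 1 higher and 1 lower at an unadjusted p under 0.05 and a median log2 fold change of 0.02. Of 35 other epithelial antimicrobial genes 30 were tested, with 0 called, 6 higher and 4 lower at that level and a median of -0.04. Lyz1, the Paneth cell lysozyme, was at 12.7, 18.4 and 18.0 CPM in 5-Fu+BBR and 6.70, 6.80 and 6.19 CPM in 5-Fu, without overlap (log2 fold change 1.32, edgeR adjusted p = 0.0705). Reads of Lyz1 and the macrophage gene Lyz2 may be split. Pglyrp1, a peptidoglycan receptor, was at 356, 289 and 284 CPM in 5-Fu+BBR and 501, 449 and 558 CPM in 5-Fu (-0.70, adjusted p = 0.113). Lcn2, which binds bacterial siderophores, was at 3.62, 1.32 and 0.271 CPM in 5-Fu+BBR and 9.76, 22.2 and 11.5 CPM in 5-Fu (-3.05, adjusted p = 0.211). Camp, the cathelicidin, had 0 counts in all 5-Fu+BBR libraries and 32, 85 and 17 counts in 5-Fu (edgeR adjusted p = 0.0980).
Neutrophils also make Camp, Lcn2 and S100a8. Of 14 neutrophil markers 0 were called, 1 was higher and 3 lower at an unadjusted p under 0.05, with a median log2 fold change of -1.43. All 14 summed to 1320, 942 and 775 CPM in 5-Fu+BBR and 907, 931 and 767 CPM in 5-Fu, but Cd177 and Ly6g took most of that. Cd177 was the marker that was higher, at 901, 638 and 521 CPM in 5-Fu+BBR and 388, 593 and 311 CPM in 5-Fu. Ly6g overlapped between the groups. Leaving both out was not part of the fixed list. The other 12 summed to 41.8, 14.5 and 9.27 CPM in 5-Fu+BBR and 107, 94.6 and 19.2 CPM in 5-Fu, lowest in 5-Fu+BBR libraries 2 and 3, where Camp, Mmp8 and Retnlg were at 0. The part of neutrophil RNA in the values of Reg3b and Reg3g was not tested.

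Genes of IL-22 and STAT3 control, a list that mixes regulators with targets such as Socs3 and Fut2, were looked at next. Of 28 genes 26 were tested, with 0 called, 1 higher and 4 lower at an unadjusted p under 0.05 and a median of -0.13. Il22 itself was too low to be tested, with 8, 0 and 0 counts in 5-Fu+BBR and 53, 11 and 21 counts in 5-Fu, where 1 fragment can be worth about 4 counts. Socs3, a STAT3 target and feedback inhibitor, was at 33.8, 22.4 and 19.0 CPM in 5-Fu+BBR and 143, 47.1 and 119 CPM in 5-Fu (log2 fold change -2.04, edgeR adjusted p = 0.151). Fut2, a fucosyltransferase known to be induced by IL-22 in mouse epithelium, was at 310, 164 and 148 CPM in 5-Fu+BBR and 594, 392 and 566 CPM in 5-Fu (-1.32, adjusted p = 0.148). Stat3 was at 187, 147 and 138 CPM in 5-Fu+BBR and 223, 201 and 192 CPM in 5-Fu (-0.39, adjusted p = 0.258).
In Socs3, Fut2 and Stat3, named for a small p or as key regulators, all 5-Fu+BBR libraries lay below all 5-Fu libraries. Of the 26 genes tested 4 did so, against 9.68% of all genes tested. In these 3 genes 5-Fu+BBR library 1 was the highest of its group, as it was for Reg3b and Reg3g. This also held for Osmr (40.1, 19.7 and 12.3 CPM) and Pim1 (41.4, 35.9 and 26.4 CPM), whose log2 fold changes were 0.17 and 0.12. A link to Reg3b and Reg3g was not tested. Il22ra2, the soluble receptor that captures IL-22, ran the other way from Socs3, Fut2 and Stat3. It was at 2.00, 3.85 and 8.19 CPM in 5-Fu+BBR and 0.270, 0.610 and 1.62 CPM in 5-Fu (2.496, edgeR adjusted p = 0.206). The receptor chain Il22ra1 was at 40.6, 19.3 and 21.1 CPM in 5-Fu+BBR and 32.8, 36.6 and 35.1 CPM in 5-Fu (-0.37, adjusted p = 0.566), and Myd88 had -0.07 (adjusted p = 0.881). No gene of this list passed the adjusted test, and its members share the libraries with Reg3b and Reg3g.

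**Figure D4:**
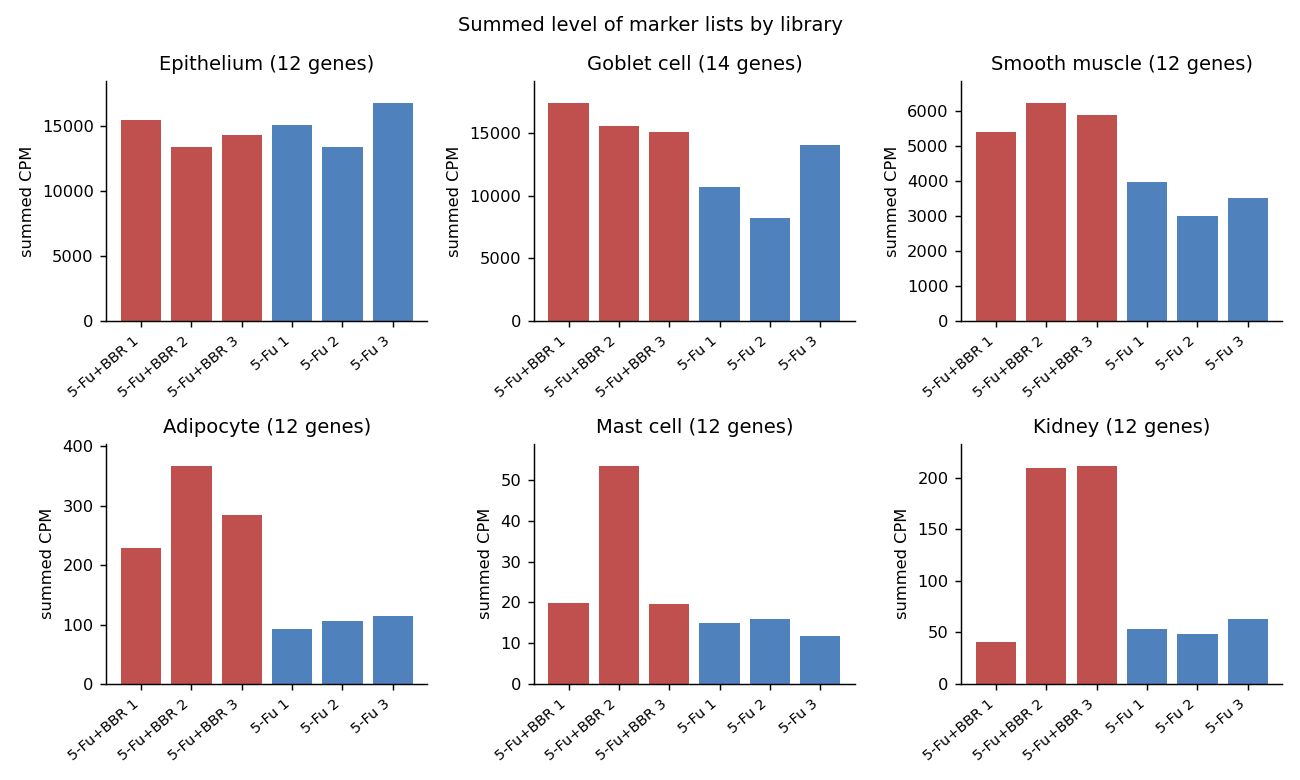
Summed CPM (bars from 0, 1 panel per marker list) in each library, 5-Fu+BBR left and 5-Fu right. Kidney markers are high in 5-Fu+BBR libraries 2 and 3, at 210 and 212 CPM, against 40.6 to 62.7 CPM elsewhere, while smooth muscle and adipocyte markers are higher in all 5-Fu+BBR libraries and epithelial markers overlap.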

How the data were processed

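The samples were grouped by the labelled treatment. RNA was Trizol-extracted, per the labels' protocols, selected with oligo(dT) and made into strand-marked libraries with molecular identifiers. GRCm38, StringTie 1.3.4d, HISAT2 2.0.4, edgeR, DESeq2, UMI-tools and cutadapt 1.9 appear in the submitters' processing notes, without their roles. The annotation and any use of the identifiers in counting are not given in the sources used here.

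The authors deposited estimated counts as whole numbers, and FPKM. Counts were 4 more often than 3 or 5, so 1 fragment can be worth about 4 counts. They were used as deposited. For 92.1% to 93.2% of genes with 1 transcript and over 50 counts, the count was within 2% of FPKM times length and a constant of the library.

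Genes were filtered with filterByExpr, TMM-scaled, then tested with edgeR 4.0.16 (robust, two-sided, Benjamini-Hochberg, no covariates) in R 4.3.3. Every pair of libraries differed by more than sampling noise. Alternatives used DESeq2 1.42.0 and limma 3.58.1, other filters and left-out libraries. The members and 17 lists were chosen with earlier results of these data known, and the mast cell and type 2 lists after values were seen. Named genes were the members, key regulators, up to 3 genes per list with the smallest p, and the 3 genes closest in centred log2 CPM to each of the 3 members with the largest SD. Those closest genes were sought at a mean of at least 10 CPM. Others were named after their values were seen. The labels give no batch or date.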

Additional observations from a re-analysis of the deposited data

How the results depend on the processing

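The count of genes at an adjusted p under 0.05, 15 by edgeR, was 77 with no filter, 1226 by DESeq2, 7 on log2(FPKM + 0.1), 0 on log2(FPKM + 1) with no filter, 144 at an adjusted p under 0.1 and 0 without 5-Fu+BBR libraries 2 and 3, and 0 to 159 with each library left out. The cause was not tested. Members called stayed at 0 in these settings except without 5-Fu+BBR library 1, where Reg3b was called (range 0 to 1 over the libraries left out). Members lower at an unadjusted p under 0.05, 0 by edgeR, were 1 by DESeq2 and 0 to 2 with a library left out. Members higher, 1 by edgeR, were 0 on log2(FPKM + 1) with no filter and 0 to 3 with a library left out. The background moved too. At that level, in either direction, 3128 of 20101 genes passed by edgeR, 3505 of 20101 by DESeq2 and 3367 of 30777 on log2(FPKM + 1) with no filter. With a library left out the count ran from 1888 of 20705 to 3736 of 20878 genes, and it was 2894 of 20806 without 5-Fu+BBR library 1.

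Log2 fold changes turned sign without 5-Fu+BBR libraries 2 and 3 for Reg3b (0.72), Reg3g (0.90), Ang4 (-1.73), Itln1 (-0.55) and Mptx1 (-1.35), a fit in which the lone library is assumed to vary like 5-Fu. With 1 library left out they ran from -4.11 to -0.21 for Reg3b, -3.87 to 0.21 for Reg3g, -1.54 to 3.77 for Ang4, -0.36 to 3.33 for Itln1, -0.35 to 2.73 for Mptx1, -0.16 to 0.17 for Lypd8 and -0.17 to 0.24 for Wfdc2. Lypd8 was at -0.045 without 5-Fu library 2 and Wfdc2 at -0.030 without 5-Fu+BBR library 1. Reg4 kept its sign in all 19 alternatives (0.46 to 1.002, adjusted p 0.0527 to 0.823). DESeq2 gave no p for Ang4 and Itln1.

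The samples share only a number: deviations of same-numbered libraries correlated at 0.058, 0.024 and 0.12. The library 5-Fu+BBR 1 correlated best with 5-Fu library 2, at 0.10. Both 5-Fu+BBR libraries 2 and 3 correlated best with 5-Fu library 3, at 0.034 and 0.12. With a replicate block 113 genes and 0 members were called, and log2 fold changes were -2.54 for Reg3b, -2.08 for Reg3g, 0.23 for Ang4, 0.94 for Itln1 and 0.62 for Mptx1. The SE of the log2 fold change was 1.27 to 1.78 for the 5 members of widest spread, and even changes of 3.20 (Ang4) and 2.79 (Itln1) were not called with 3 libraries a group.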
